A study of Mus musculus with 10 samples.

Results

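Bone morphogenetic proteins (BMPs) are secreted ligands that act on endothelial cells through paired serine/threonine kinase receptors. In endothelium the type I receptor ALK1, encoded by Acvrl1, works with the type II receptor BMPR2 and the co-receptor endoglin, and the activated complex phosphorylates SMAD1, SMAD5 and SMAD9. These enter the nucleus with SMAD4 and switch on the inhibitor of DNA binding genes Id1, Id2 and Id3, as well as Smad6 and Smad7, whose products feed back to restrain the pathway. The axis is known for keeping vessels quiescent and for its inherited vascular diseases, hereditary hemorrhagic telangiectasia and pulmonary arterial hypertension.

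The 10 genes described here were 3 receptors (Acvrl1, Eng, Bmpr2), 2 ligands (Bmp4, Bmp6), 3 ID targets (Id1, Id2, Id3) and 2 inhibitory SMADs (Smad6, Smad7). They were chosen by name for their place in this pathway, and all 10 were found among the 46983 genes of the count table by their Ensembl identifiers. RNA was sequenced from CD31+ cells that had been pulled from digested hearts of male wild-type C57BL/6J mice with antibody-coated magnetic beads. Diets began at 8 weeks of age, and 5 mice received the control diet D12359 (11.6% of energy as fat) and 5 the ketogenic diet D17011501 (89.5% of energy as fat), both for 14 days. Each mouse gave 1 library, made from 10 ng RNA with a kit that amplifies full-length cDNA without recording the strand, and read as single reads of 50 bp.

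Between 10885154 and 12710861 reads per mouse fell on genes, a CV of 4.77% over the 10 mice, with a median of 11285659 on the control and 11837379 on the ketogenic diet. Endothelial identity was checked on 9 marker genes, none of which was at 0, and their summed level was 4349 to 4590 CPM (counts scaled to the library total) on the control and 4273 to 4823 on the ketogenic diet. Cells of other types contributed RNA as well, and the summed CPM of 9 cardiomyocyte markers was 528 to 655 against 591 to 814 and that of 8 mural markers 2518 to 2715 against 2435 to 2694. Some endothelial and mural markers had near-constant raw counts, such as Cdh5 (7356 to 7571 reads) and Rgs5 (7457 to 7691). Others varied more, such as Kdr (7281 to 9501) and Pdgfrb (4098 to 5310). The endothelial and mural sums may thus partly follow the library total, which was not tested. In bulk RNA of this kind, fewer cells of a type and less RNA per cell cannot be told apart.

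All 10 genes were expressed in every mouse, and none changed detectably with the diet. Of 15949 genes with enough reads to be tested, edgeR's quasi-likelihood test called 213 (1.34%) at an adjusted p under 0.05, 0.809% with a rise and 0.527% with a fall, and 0 of the 10 genes were among them. DESeq2 called 819 of these genes (5.14%, with 2.88% higher and 2.26% lower) and again 0 of the 10. At an unadjusted p under 0.05, edgeR gave 2844 genes (17.8%, with 8.57% higher and 9.26% lower) and 1 of the 10, Bmpr2, which was higher. The normalized counts of the diets failed to overlap in 692 genes (4.34%, with 2.4% higher and 1.94% lower) and in 0 of the 10. Their log2 fold changes (ketogenic over control) ran from -0.14 to 0.12 with a median of -0.05, and 7 of the 10 were below 0, against a median of -0.0057 and 51.4% below 0 over all tested genes. A normalized count is the read count scaled to a common library size by TMM, and adjusted p-values below come from edgeR with Benjamini-Hochberg adjustment over the 15949 genes.

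**Figure D1:**
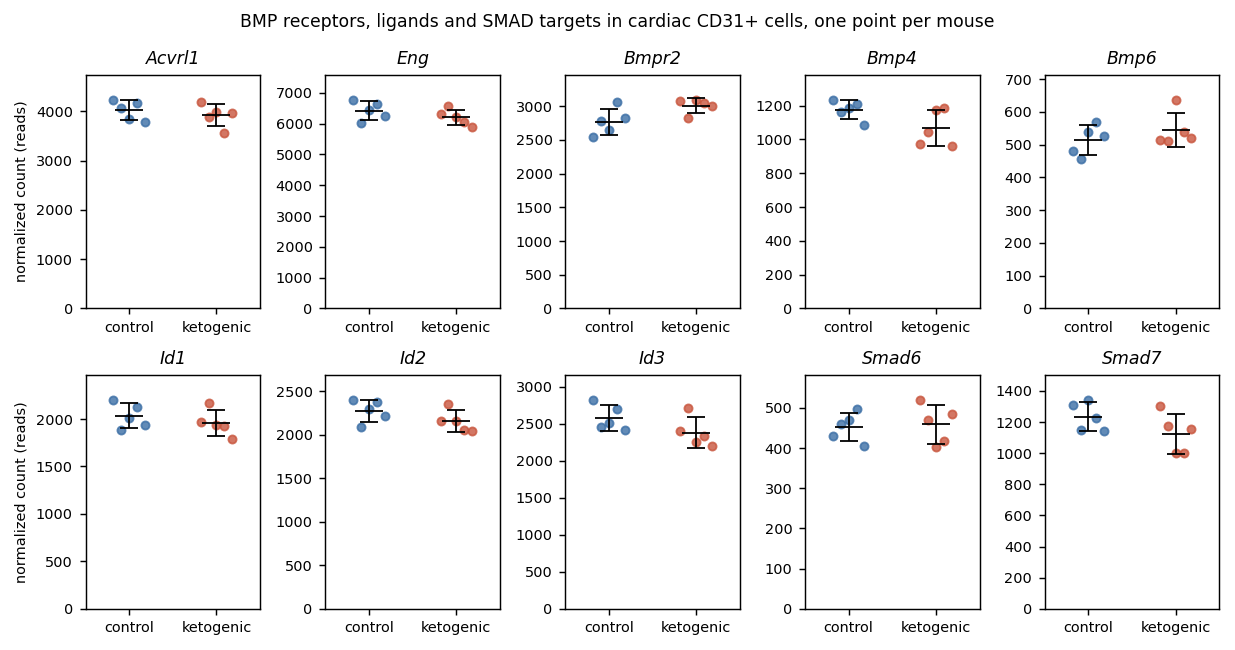
Normalized read counts (vertical axis, starting at 0) of the 10 genes in each mouse on the control (blue) and ketogenic (red) diet, with the mean (bar) and SD (whiskers) of 5 mice. The points of the diets overlap for every gene, as for Bmpr2 with 2549 to 3061 on the control and 2826 to 3099 on the ketogenic diet.

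Among the receptors, Bmpr2 was the one with the largest shift. Bmpr2, on chromosome 1 (59763400 to 59879014, + strand), encodes the type II receptor that phosphorylates its type I partner. Its normalized counts in control mice 1 to 5 were 2549, 2776, 2651, 3061 and 2821, and in ketogenic mice 1 to 5 they were 3073, 2826, 3099, 3048 and 3003. The ketogenic mice lay in the upper part of the control range or just above it and control mouse 4 lay among them, so the diets overlapped. The mean was 2772 ± 194 on the control and 3010 ± 109 on the ketogenic diet (SD, n = 5 each). The log2 fold change was 0.12 ± 0.0477 (SE), with a 95% interval of 0.01 to 0.22. The unadjusted p of edgeR was 0.0285 and the adjusted p 0.218, so Bmpr2 did not pass the test across all genes.

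Acvrl1, on chromosome 15 (101128522 to 101145336, + strand), encodes the type I receptor ALK1, which binds BMP9 and BMP10 with high affinity. Its normalized counts were 4239, 4079, 3849, 4176 and 3794 in the control mice and 4200.4, 3894, 3985, 3569 and 3974 in the ketogenic mice. Apart from ketogenic mouse 4, which was the lowest of all, the ketogenic mice sat within the control range. On the log2 scale the fold change was -0.04 ± 0.0461 (SE), with a 95% interval of -0.14 to 0.06 and an edgeR adjusted p of 0.708.

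Eng, on chromosome 2 (32646595 to 32682669, + strand), encodes endoglin, the co-receptor that presents ligand to ALK1. Its normalized counts were 6779, 6028, 6436, 6633 and 6246 in the control mice and 6305, 6558, 6199, 6056 and 5875 in the ketogenic mice. The highest value was in control mouse 1 and the lowest in ketogenic mouse 5, with the rest interleaved. Its log2 fold change was -0.05 ± 0.0385 (SE), with a 95% interval of -0.14 to 0.03 and an edgeR adjusted p of 0.511. This was the smallest standard error of the 10 genes, and the raw count of Eng hardly differed between mice, as described below.

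The ligands were measured at lower counts. Bmp4, on chromosome 14 (46383520 to 46390669, - strand), encodes a ligand of the BMP2/4 subgroup. Its normalized counts in the control mice were 1236, 1161, 1188, 1209 and 1086. In the ketogenic mice they were 976, 1045, 1172, 1188 and 961. Ketogenic mice 1, 2 and 5 were below every control mouse while mice 3 and 4 were among the controls, so that the ketogenic SD (107) was larger than the control SD (57.1). This gave a log2 fold change of -0.14 ± 0.0673 (SE), with a 95% interval of -0.28 to 0.01 and an edgeR adjusted p of 0.309.

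Bmp6, on chromosome 13 (38345107 to 38500302, + strand), encodes a BMP that liver endothelial cells release to control iron balance. Its normalized counts were 479, 455, 539, 567 and 526 in the control mice and 514, 511, 637, 539 and 519 in the ketogenic mice. Ketogenic mouse 3 was the highest of the 10 and stood apart from the other ketogenic mice, all of which were within the control range. The log2 fold change was 0.08 ± 0.0828 (SE), with a 95% interval of -0.10 to 0.26 and an edgeR adjusted p of 0.627. Without ketogenic mouse 3 it was 0.03.

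The ID genes encode helix-loop-helix proteins that lack a DNA-binding region and hold E proteins away from DNA, and they are the standard readout of SMAD1/5/9 activity. All 3 had a mean slightly lower on the ketogenic diet, and none passed the test. Id1, on chromosome 2 (152736251 to 152737410, + strand), had normalized counts of 2202, 1882, 2014, 2129.7 and 1942 in the control mice and 1969, 2171, 1938, 1923 and 1792 in the ketogenic mice. The single high ketogenic value was in mouse 2, and the others were in the lower part of the control range or below it. On the log2 scale the fold change was -0.05 ± 0.0566 (SE), with a 95% interval of -0.18 to 0.07 and an edgeR adjusted p of 0.651.

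Id2, on chromosome 12 (25093799 to 25097140, - strand), had normalized counts of 2399, 2086, 2294, 2377 and 2213 in the control mice and 2151, 2355, 2159.9, 2054 and 2045 in the ketogenic mice. Ketogenic mouse 2 was again the high one, and ketogenic mice 4 and 5 were below every control. Its log2 fold change was -0.08 ± 0.0497 (SE), with a 95% interval of -0.19 to 0.03 and an edgeR adjusted p of 0.435.

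Id3, on chromosome 4 (136143497 to 136145755, + strand), had normalized counts of 2822, 2461, 2507, 2702 and 2415 in the control mice and 2399.6, 2719, 2252, 2332 and 2202 in the ketogenic mice. Apart from ketogenic mouse 2, the ketogenic mice were below every control mouse. This gave a log2 fold change of -0.12 ± 0.0616 (SE), with a 95% interval of -0.25 to 0.02 and an edgeR adjusted p of 0.349.

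The inhibitory SMADs block receptor-activated SMADs, with SMAD6 acting mainly on BMP signals and SMAD7 on both BMP and TGF-beta signals. Smad6, on chromosome 9 (63953076 to 64022059, - strand), had normalized counts of 429.9, 461, 471, 497 and 406 in the control mice and 520.0, 471, 404, 418 and 485 in the ketogenic mice. The values of the diets were interleaved. The log2 fold change was 0.02 ± 0.0851 (SE), with a 95% interval of -0.17 to 0.21 and an edgeR adjusted p of 0.926, and it was -0.02 without control mouse 5 or without ketogenic mouse 1.

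Smad7, on chromosome 18 (75367529 to 75395935, + strand), had normalized counts of 1311, 1149, 1343, 1229 and 1144 in the control mice and 1302, 1172, 999, 999 and 1154 in the ketogenic mice. Ketogenic mice 3 and 4 were below all controls and the other 3 were among them. On the log2 scale the fold change was -0.13 ± 0.0786 (SE), with a 95% interval of -0.30 to 0.04 and an edgeR adjusted p of 0.401.

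**Figure D2:**
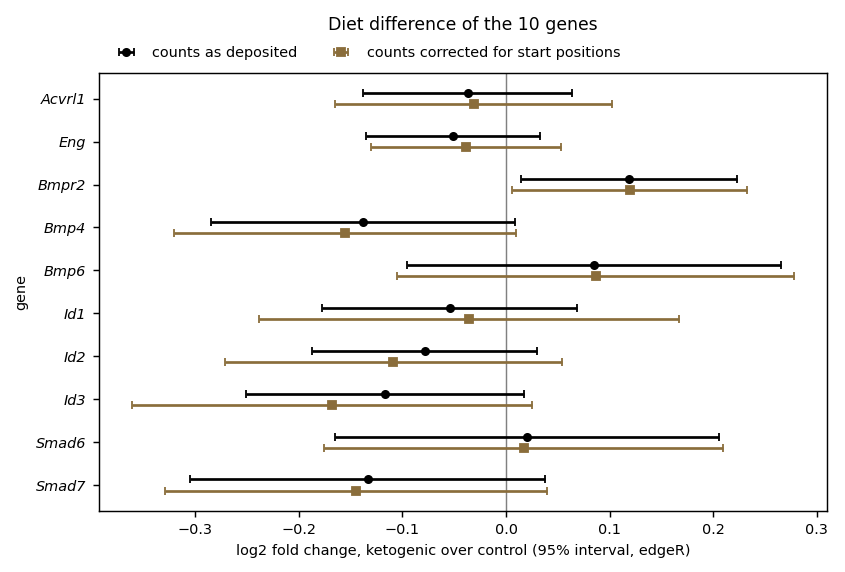
Log2 fold change (ketogenic over control, horizontal axis) with its 95% interval for each of the 10 genes, from the counts as deposited (black) and from counts corrected for the number of possible read start positions (brown). The interval of Bmpr2 (0.01 to 0.22 as deposited) is the only one that leaves out 0, and its adjusted p was 0.218.

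The intervals bound the size of a difference that these 10 libraries could have missed. For Acvrl1, a ketogenic level from 0.909 to 1.04 times the control level was compatible with the data at 95%. On counts corrected for start positions, described below, the Acvrl1 range was 0.892 to 1.07 times. The range of Bmpr2 was 1.01 to 1.17 times. For Bmp4 the range was 0.821 to 1.01 times and for Bmp6 it was 0.936 to 1.20 times. The ranges of Eng (0.910 to 1.02), Id1 (0.884 to 1.05), Id2 (0.878 to 1.02) and Id3 (0.840 to 1.01) assume that the read count keeps pace with the transcript level, which is examined next. Smad6 allowed 0.892 to 1.15 times and Smad7 0.810 to 1.03 times.

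The counts of Eng, Id1 and Id2 behaved unlike those of the other genes. A single read can start at any exonic base on either strand, so a gene has about 2 start positions per exonic base, and over all tested genes no mouse had more than 2.171 reads per exonic base. Id2 held on average 86.9% as many reads as it has start positions, Id1 85.8%, Eng 77.8% and Id3 69.0%, whereas Acvrl1 held 46.6%, Bmp4 24.9%, Smad7 13%, Bmp6 11%, Bmpr2 8.05% and Smad6 7.12%. A share over 50% was found in 3.54% of tested genes. The share of Id2 rests on 1270 exonic bases, and it would be lower with the 2438 bases of the GENCODE M21 annotation.

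The raw read counts of these genes were close to constant. Over the 10 mice the highest exceeded the lowest by 3.83% for Eng (6210.0 to 6448 reads), by 6.81% for Id2 (2114 to 2258 reads) and by 7.56% for Id1 (1931 to 2077 reads), while the total count per mouse ranged over 16.8%. The variance between mice of a diet, divided by the mean, was 0.805 for Eng, 0.869 for Id2 and 1.07 for Id1, at or near the 1 that counting error alone would give, compared with 4.4 for Id3 and 4.90 to 18.7 for the remaining 6 genes. The same was seen across the 7136 genes whose mean count was 400 or more. The median ratio of variance to mean was 8.82 in genes that used under 10% of their start positions and 0.709 in the 150 genes that used at least 75%, of which 56.7% had a variance below their mean. Whether duplicate reads were removed before counting is not given in the sources used here.

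**Figure D3:**
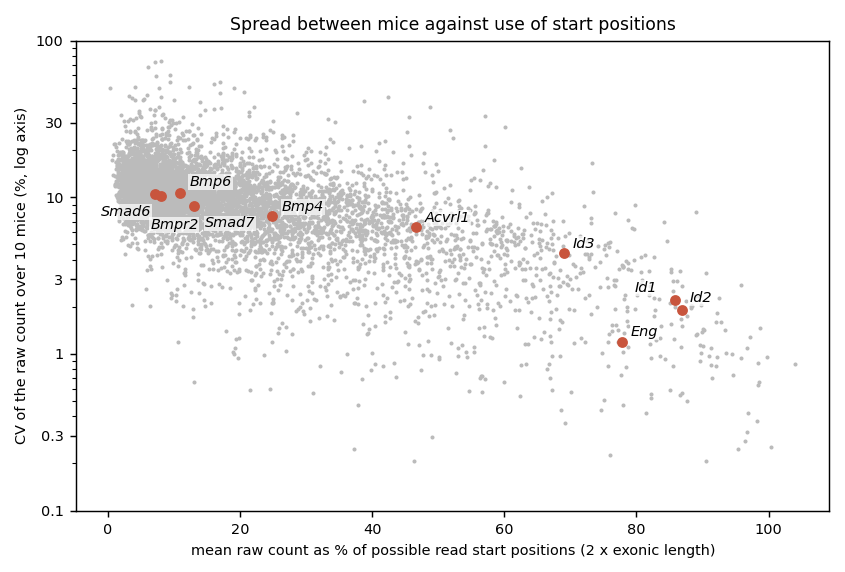
CV of the raw count over the 10 mice (vertical log axis, %) against the mean raw count as a percent of the possible start positions, for the 7136 genes whose mean count was 400 or more (grey) and the 10 genes (red, labelled). Eng, Id1 and Id2 sit at the lower right, at 77.8% to 86.9% of start positions and CVs of 1.20% to 2.23%, while Bmpr2, Smad6, Smad7 and Bmp6 sit at the upper left.

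CPM holds the library total as its divisor, so where the raw count hardly moves, the CPM must fall as the total count rises. For such genes the correlations below and their p-values are not evidence separate from the raw counts. Across the 10 mice the log2 CPM of Eng had a Pearson's r of -0.969 with the total count (Spearman's rho -0.976, permutation p = 1e-05, adjusted p = 0.00015), and 1e-05 is the smallest p that 100000 resamples can give. Pearson's r was -0.962 for Id1 (rho -0.988, permutation p = 1e-05), -0.945 for Id2 (rho -0.964, permutation p = 2e-05) and -0.876 for Id3 (rho -0.867, permutation p = 0.0008), with adjusted p-values of 0.00015, 0.0002 and 0.00267 over 30 relations. Without the 2 mice farthest from the median total (control 1 and ketogenic 5), r was -0.948 for Eng, -0.924 for Id1, -0.955 for Id2 and -0.761 for Id3. For the other 6 genes r was between -0.504 and 0.509 and none passed (permutation test, adjusted p from 0.233 to 0.966). With the log2 total count as a covariate in the edgeR fit, a setting chosen after seeing the data, the log2 fold change was 0.00 for Eng, 0.02 for Id1, -0.02 for Id2 and -0.04 for Id3, and 0.10 for Bmpr2. The totals moved with the diet to some degree, as the ketogenic median was the higher, so part of the small downward shift of these 4 genes cannot be told apart from the total count.

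**Figure D4:**
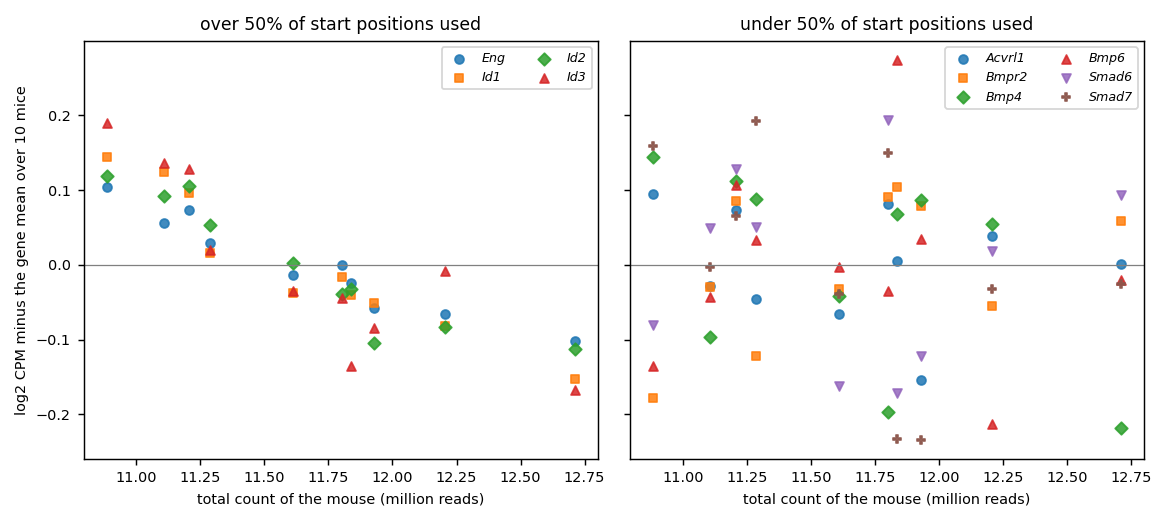
Log2 CPM of each gene, minus its mean over the 10 mice (vertical axis), against the total count of the mouse, for the 4 genes that used over 50% of their start positions (left) and the other 6 (right). The left-hand genes fall with the total count (r from -0.969 to -0.876), and the right-hand genes scatter (r from -0.504 to 0.509).

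Counts were also corrected for start positions, by estimating how many reads would have given the observed number of used positions. This raised the count of Id2 to 2.35 times the deposited one, that of Id1 to 2.29 times, that of Eng to 1.94 times, that of Id3 to 1.70 times and that of Acvrl1 to 1.35 times. The log2 fold change then became -0.17 for Id3 (95% interval -0.36 to 0.03), -0.11 for Id2 (-0.27 to 0.05), -0.04 for Id1 (-0.24 to 0.17) and -0.04 for Eng (-0.13 to 0.05). The interval of Id1 and that of Id2 were thus wider than from the deposited counts, and 0 of the 10 genes were called in this setting either. The correction reduced the relation with the total count without removing it (r = -0.867 for Eng, -0.847 for Id1, -0.788 for Id2 and -0.787 for Id3).

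Between genes, levels were compared per length. On the RPKM scale of the authors' table (reads scaled to gene length and to the library total), the control order was Id2 (153 ± 7.88, SD, n = 5), Id3 (96.1 ± 6.01), Id1 (82.9 ± 4.96), Eng (75 ± 3.14), Acvrl1 (51.5 ± 2.36), Bmp4 (26.2 ± 1.19), Bmp6 (18.2 ± 1.57), Smad7 (13.5 ± 0.973), Bmpr2 (12.9 ± 0.878) and Smad6 (10.6 ± 0.806). Neighbours in this order whose ranges over 5 control mice overlapped were Id1 with Eng and Smad7 with Bmpr2. On the ketogenic diet the order had 1 exchange, with Bmpr2 (14.1 ± 0.505) above Smad7 (12.4 ± 1.41), and these again overlapped, as did Id3 with Id1, Id1 with Eng, Bmp4 with Bmp6 and Smad7 with Smad6.

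The RPKM order depends on the gene length behind it. For 98.8% of 11445 genes with several transcripts, the length in the table was the summed length of all annotated exons, in which stretches shared by transcripts were counted repeatedly. Taken over each exonic base once, the control levels in CPM per exonic kilobase were 154 ± 8.67 for Id2, 151 ± 9.76 for Id1, 136 ± 6.36 for Eng and 124 ± 8.33 for Id3, each overlapping the next, followed by Acvrl1 (81.2 ± 3.98), Bmp4 (45.0 ± 2.18), Smad7 (23.5 ± 1.73), Bmp6 (18.3 ± 1.63), Bmpr2 (13.3 ± 0.928) and Smad6 (12.1 ± 0.950). On this scale the drop from Id2 to Id3 was smaller than in RPKM but still present at the Id2 length used, which is given below. In the control mice Id2 ranged from 141 to 162 and Id3 from 116 to 135, without overlap. Smad7 lay above Bmp6 in the controls, also without overlap. The 4 highest genes are those that used over 50% of their start positions. For Bmp6 and Id2 the length used on this scale was that of the RPKM table, whose version of the gene is older than that of GENCODE M21. It was 1270 bases for Id2, against 2438 in M21, and 2410 for Bmp6, against 3900. With the M21 lengths both levels would be lower, so the places of Id2 and Bmp6 in this order depend on that choice.

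Across mice, the log2 CPM values of the ID genes varied together. Id1 and Id2 had a Pearson's r of 0.938 over the 10 mice (rho 0.939, permutation p = 8e-05, adjusted p = 0.0006), Id1 and Id3 of 0.928 (rho 0.855, permutation p = 0.0003, adjusted p = 0.0015) and Id2 and Id3 of 0.889 (rho 0.867, permutation p = 0.00108, adjusted p = 0.00324). Without the 2 mice farthest from the median, r was 0.893, 0.846 and 0.806, and on deviations from the mean of each diet it was 0.946, 0.947 and 0.855. All 3 genes also followed the total count, so a shared dependence on depth was not separated from this relation. Where raw counts hardly move, as for Id1 and Id2, the shared divisor of the CPM by itself gives a positive r. The p-values are thus no test of shared regulation. On counts corrected for start positions the 3 values of r were 0.765, 0.865 and 0.746.

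Smad6 and Smad7 had a Pearson's r of 0.620 (rho 0.648, permutation p = 0.0581, adjusted p = 0.116), which fell to 0.268 without ketogenic mice 3 and 4. Acvrl1 had r of 0.423 with Eng and -0.125 with Bmpr2 (permutation test, adjusted p = 0.321 and 0.846). The ligands showed no detectable relation with Id1, with r of 0.424 for Bmp4 and -0.0494 for Bmp6 (permutation test, adjusted p = 0.321 and 0.929).

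Immediate early and heat shock genes respond to tissue digestion. A score was made from 12 such genes (the mean of their z-scores in each mouse). Its r was 0.959 with Id3, 0.903 with Id2, 0.893 with Eng and 0.875 with Id1 (permutation test, adjusted p from 0.0006 to 0.00423), and 0.71 with Smad7 (adjusted p = 0.0531, permutation test). However, 8 of the 12 genes used over 50% of their own start positions, Zfp36 had 3582 to 3611 reads on 3584 positions, and the score itself had r of -0.849 with the total count (rho -0.855, permutation p = 0.002, adjusted p = 0.005). Digestion and depth cannot be told apart by this score in these libraries. The summed CPM of the 12 genes was 3086 to 3335 on the control and 2900 to 3384 on the ketogenic diet, 11 of them had a log2 fold change below 0, and edgeR called 0 of the 12 (1 at an unadjusted p under 0.05, 0 by DESeq2). With the score as a covariate, the log2 fold change of Acvrl1 was 0.01, of Eng 0.02, of Id1 0.06, of Id2 0.01 and of Id3 0.01.

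A further 59 genes of the BMP and TGF-beta pathway were listed by role, and 51 had enough reads to be tested. EdgeR called 0 of the 51 at an adjusted p under 0.05, while 14 had an unadjusted p under 0.05 (27.5%, 6 of them upward and 8 downward) and DESeq2 called 7 (13.7%, 6 upward and 1 downward). The background shares over all tested genes were 17.8% and 5.14%, given above. The other 8, among them the ligands Bmp7 and Bmp10 and the type I receptors Bmpr1b and Acvr1c, had too few reads for the filter.

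Of the 8 tested ligands, 4 had an unadjusted p under 0.05 (50.0%, against 17.8% of all tested genes) and none passed edgeR's adjustment. Tgfb2, a TGF-beta isoform, had 781 ± 95.7 normalized counts on the control and 1115 ± 211 on the ketogenic diet (log2 fold change 0.51, edgeR adjusted p = 0.0698), and DESeq2 called it (adjusted p = 0.00196). Inhbb, the activin B subunit, went from 49.5 ± 9.57 to 85.9 ± 24.4 (0.80, edgeR adjusted p = 0.0881), and DESeq2 called it as well. Tgfb1 went from 338 ± 30.5 to 246 ± 51.7 (-0.46, edgeR adjusted p = 0.110) and was the gene DESeq2 called lower. Tgfb3, the ligand with the highest RPKM (34.3), had a log2 fold change of -0.15 (edgeR adjusted p = 0.142). Gdf2, which encodes the ALK1 ligand BMP9, had only 4 to 37 reads per mouse and a 95% interval of -1.32 to 1.01 on the log2 scale.

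Among 10 tested receptors, Acvr2a, a type II receptor for activins and BMPs, had a log2 fold change of 0.24 (379 ± 21.9 to 449 ± 28.7 normalized counts, edgeR adjusted p = 0.101). Tgfbr2, the TGF-beta type II receptor and the listed receptor with the highest RPKM (33.6), had 0.21 (1737 ± 123 to 2014 ± 106, edgeR adjusted p = 0.0729). DESeq2 called both. The partners of BMPR2 among the type I receptors were close to 0, with -0.02 for Bmpr1a (95% interval -0.24 to 0.20) and 0.00 for Acvr1 (-0.15 to 0.15).

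Of the 6 listed SMADs, 0 were called by edgeR and 2 had an unadjusted p under 0.05 (33.3%, against 17.8% of all tested genes). DESeq2 called 2 (33.3%, against 5.14%). Smad1, the one with the highest RPKM (17.8), had a log2 fold change of -0.08 (edgeR adjusted p = 0.559). Smad5 had 0.24 (1736 ± 107 to 2048 ± 241 normalized counts, edgeR adjusted p = 0.134), and Smad9 had 0.83 (32.8 ± 5.52 to 58.6 ± 16.1, edgeR adjusted p = 0.0706). Smad9 was the 1 pathway gene whose diets did not overlap (25.3 to 40.0 against 45.2 to 85.8 normalized counts), at 24 to 87 reads per mouse. DESeq2 called Smad5 and Smad9.

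Of 14 tested inhibitors, 0 had an unadjusted p under 0.05 by edgeR (against 17.8% of all tested genes) and 0 were called by DESeq2 (against 5.14%). They included Fstl1, a secreted follistatin-like protein and the inhibitor with the highest RPKM (84.2, log2 fold change -0.03, edgeR adjusted p = 0.672). Fstl1 used 64.0% of its start positions. The 3 E proteins that ID proteins bind, Tcf3, Tcf4 and Tcf12, had log2 fold changes of 0.08, 0.03 and 0.08, and 0 of the 3 were called by edgeR or by DESeq2 or had an unadjusted p under 0.05.

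The 13 other target genes, several of which also answer to Notch, flow or stress, all had a log2 fold change below 0, with a median of -0.18. Over all tested genes 51.4% were below 0 and the median was -0.0057. The target list, like all lists here, was chosen with earlier results of these data known, so its shares are no independent test. EdgeR and DESeq2 called 0 of the 13. An unadjusted p under 0.05 was found for 6, all downward (46.2%, against 9.26% downward over all tested genes). Those 6 were Runx1 (-0.74, 67.6 ± 12.1 to 40.3 ± 12.2 normalized counts, edgeR adjusted p = 0.120), Hey1 (-0.26, adjusted p = 0.239), Tmem100 (-0.18, adjusted p = 0.251), Klf2 (-0.13, adjusted p = 0.124), Gata2 (-0.13, adjusted p = 0.191) and Cdkn1a (-0.11, adjusted p = 0.155). Tmem100 is an ALK1 target, Hey1 a Notch and BMP target, Klf2 a flow-responsive factor and Cdkn1a the cell cycle inhibitor p21. Cdh5, the endothelial cadherin and the target with the highest RPKM (161), had -0.04 (edgeR adjusted p = 0.571) and used 93.5% of its start positions. Cdkn1a used 64.8% and Klf2 48.5%. The count below 0 was 12 of 13 with the total count as a covariate or with corrected start positions, and 11 of 13 with the cardiomyocyte or the digestion score as a covariate, where the median was -0.09 and -0.08.

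**Figure D5:**
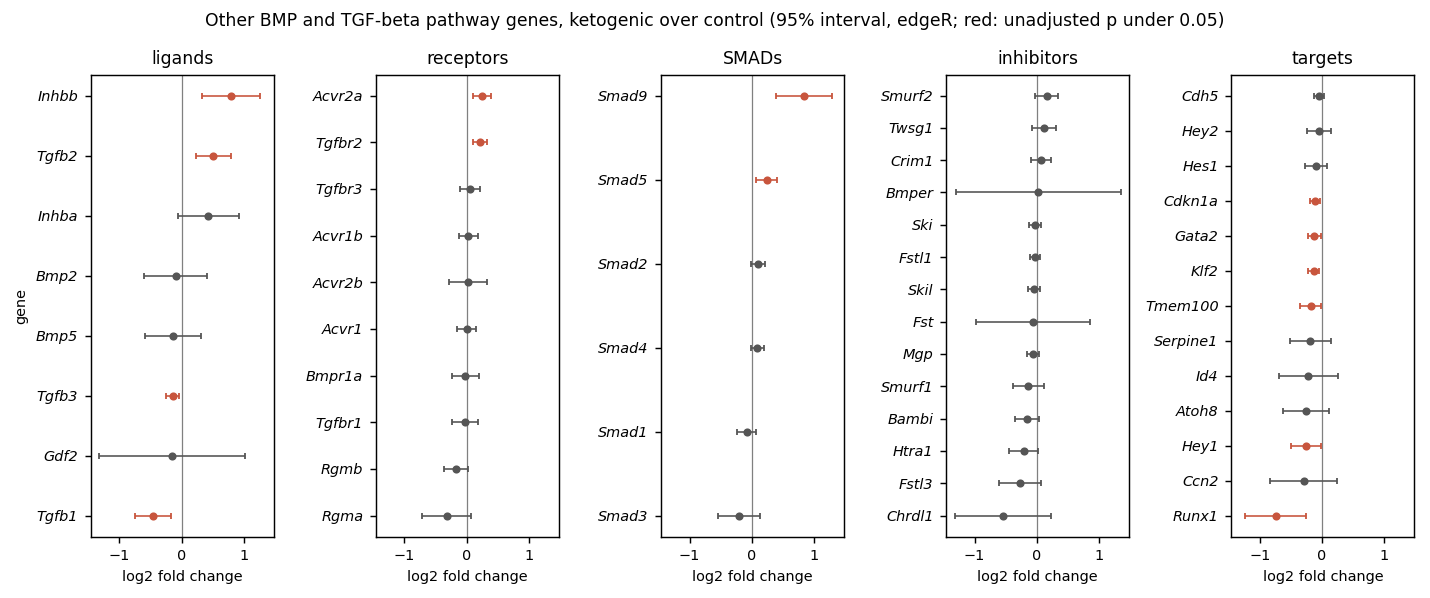
Log2 fold change (ketogenic over control, horizontal axis) with 95% interval of the 51 tested pathway genes beyond the 10, ordered by value within each role, with genes of unadjusted p under 0.05 in red. The 13 targets all lie left of 0 (median -0.18), while the SMADs and ligands spread from -0.46 to 0.83.

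Markers of other cells moved with the diet beside these results. The summed CPM of 6 lymphocyte markers was 198 to 291 on the control and 151 to 192 on the ketogenic diet, without overlap, and the B cell receptor component Cd79a was the only listed marker edgeR called (log2 fold change -0.46, adjusted p = 0.0221). Of the cardiomyocyte markers, 8 of 9 had a log2 fold change above 0, with 0 called by edgeR. At an unadjusted p under 0.05 there were 6 (66.7%, against 17.8% of all tested genes), and DESeq2 called 4 (44.4%, against 5.14%). When that list's score entered the fit as a covariate, Acvrl1 had a log2 fold change of 0.02 and Bmp6 of -0.07. Bmp4 had -0.24 (95% interval -0.41 to -0.06, edgeR adjusted p = 0.250), and 0 of the 10 genes were called. Summed macrophage markers reached 724 CPM in control mouse 1 and were 196 to 313 in the other controls and 174 to 325 on the ketogenic diet. None of the 10 genes was called without that mouse. Of the 8 macrophage markers, 7 had a log2 fold change below 0, and 0 were called by edgeR or DESeq2. At an unadjusted p under 0.05 there were 4, all downward (50.0%, against 9.26% downward over all tested genes). Summed CPM on the control and ketogenic diet was 602 to 672 and 587 to 702 for 8 fibroblast markers, 385 to 500.3 and 371 to 482 for 4 lymphatic endothelial markers and 446 to 524 and 427 to 471 for 4 endocardial markers, with 0 called in these lists by edgeR or DESeq2 and 0, 1 and 1 at an unadjusted p under 0.05. The part of other cells in the pathway values was not tested further. The exons of Acvrl1, Eng, Bmp4 and Bmp6 share 127, 61, 89 and 224 bases with genes on the opposite strand, and reads on these bases cannot be told apart without strand.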

How the data were processed

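The authors deposited raw counts, whole reads per gene and mouse without normalization, for 46983 genes, and RPKM values computed from them. Per the submitters' processing notes, bcl2fastq 2.17.1.14, STAR 2.3 and HTSeq 0.6.0 were used with build mm10. The annotation release and any removal of duplicate reads are not given in the sources used here. Samples were assigned to diets by their titles. Symbols, positions (GRCm38) and exons came from GENCODE M21, in which 37902 identifiers had the same version and 46488 matched without regard to the version.

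Counts were tested with edgeR 4.0.16 in R 4.3.3 (TMM, filterByExpr at its defaults, quasi-likelihood F-test, Benjamini-Hochberg adjustment over 15949 genes, called at an adjusted p under 0.05), and the procedure was tested on simulated data. Standard errors were derived from each log2 fold change and its F statistic, and 95% intervals from the t distribution. Log2 CPM used a prior count of 2. Two-sided permutation tests of correlations drew 100000 resamples in SciPy 1.17.1. Alternatives were DESeq2 1.42.0, which gave an adjusted p for 14592 genes, limma 3.58.1 on log2(RPKM + 1) and log2(RPKM + 0.1), other size factors and filters, a replicate block, covariates, start-position correction and each mouse left out. The total count as a covariate and 21 of the 30 correlations were added after seeing the data. Exonic length was taken as the smaller of the M21 exonic length and the RPKM length.

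The 10 genes and all lists were chosen with earlier results of these data known. Named were the 10 genes, pathway genes and E proteins with an unadjusted p under 0.05, the gene with the highest RPKM of each role and markers with an adjusted p under 0.05. Gdf2, Bmpr1a, Acvr1, Zfp36, Bmp7, Bmp10, Bmpr1b and Acvr1c were named after their values were seen, as were Tcf3, Tcf4 and Tcf12.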

Additional observations from a re-analysis of the deposited data

Results flagged for a closer look

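Of 40 sets of 5 values (a gene, a marker score or the total count within a diet), 4 held a mouse that stood apart from the others by Dixon's ratio, the distance to the closest mouse as a share of the range, with a critical value of 0.71. Chance gives about 1 in 20, or 2.0 of 40. Bmp6 had 637 normalized counts in ketogenic mouse 3, next to 511 to 539 in the other ketogenic mice (ratio 0.777). The endothelial marker score of control mouse 2 was -0.66, the lowest of the controls (ratio 0.739). The macrophage marker score of ketogenic mouse 4 was 0.67, the highest on that diet (ratio 0.881). The lymphatic endothelial marker score of ketogenic mouse 5 was -1.25, the lowest on that diet (ratio 0.719). None of the 10 genes was called by edgeR when any of these mice was left out.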

How the results depend on the processing

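Each of the 10 genes was recomputed under 22 alternatives. Of 220 values, 210 kept their direction, 10 reversed and 0 were called. The reversed values were 0.0231 for Acvrl1 and -0.0661 for Bmp6 with the cardiomyocyte score as a covariate, 0.0115 for Acvrl1, 0.0210 for Eng, 0.0570 for Id1, 0.0138 for Id2 and 0.0136 for Id3 with the digestion score and 0.0213 for Id1 with the total count. Leaving out each mouse gave -0.0247 to 0.0694 for Smad6, which was below 0 without control mouse 5 (-0.0160) or ketogenic mouse 1. The value farthest from 0 was -0.236 for Bmp4 with the cardiomyocyte score. The lowest adjusted p was 0.0985 (Bmpr2, without control mouse 4, edgeR).

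Over all tested genes, 129 were higher and 84 lower. DESeq2 gave 459 and 360, the cardiomyocyte score 34 and 8, the digestion score 15 and 6, and the total count 35 and 21. Leaving out each mouse gave 58 to 218 higher and 28 to 274 lower, with the most without ketogenic mouse 2. The cause of these differences was not tested.

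Among pathway genes, where edgeR called 0, DESeq2 called 6 higher and 1 lower, and no filter on low counts called 1 (Tgfb2). Leaving out each mouse gave 0 to 1 higher and 0 to 1 lower, with Inhbb and Tgfb1 called without ketogenic mouse 2 and Tgfb2 without ketogenic mouse 5.

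No pairing of the mice by replicate number was detected, which does not exclude one. Deviations of same-numbered mice had r from -0.134 to 0.0936, and 1 of 10 mice correlated best with its own number. With the replicate block, 63 genes were higher and 50 lower, 0 of the 10 genes and 0 pathway genes were called, and Bmpr2 had 0.12 (adjusted p = 0.270, edgeR). Eng, Id1, Id2 and Id3 used over 50% of their start positions, and what deeper sequencing would add for them was not tested.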
